A study of Homo sapiens and Mus musculus with 19 samples.

Results

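The genes described here were the 874 genes of human chromosome 15 that had at least 10 counts in 3 or more of 12 K562 libraries, out of 26335 genes of all chromosomes that met the same condition and 58721 genes in the tables. The chromosome was selected on the TET2 knockout (KO) over wild-type (WT) changes of its genes, which as a whole were at higher levels in both KO groups. All TET2 KO over WT values below belong to the measure that chose it, and they are given as a description with no test. The genes comprised 510 protein-coding genes, 266 long noncoding RNA (lncRNA) genes, 89 pseudogenes and 9 genes of other types. Of these, 860 passed the filter on low counts and entered the fit, and 14 did not. At the edge of the count rule, 17 genes had a third-highest count of exactly 10 and were included, and 17 genes of the chromosome with a third-highest count of 9 were left out.

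K562 is a human leukaemia line that carries an abnormal karyotype. Chromatin-associated RNA (caRNA), the RNA kept in the chromatin pellet after cell fractionation, was sequenced from 4 groups of 3 libraries each, to ask how MBD6, a reader of methylated RNA in the study, acts with and without TET2, an enzyme that oxidizes 5-methylcytosine. TET2 WT and TET2 KO K562 cells each carried 1 of 2 lentiviral hairpins, a control (shControl) or one that targets MBD6 (shMBD6), and all 4 groups were grown under puromycin. Whether the TET2 KO cells came from 1 clone, and whether the 3 libraries of a group came from separate cultures, was not given in the sources used here, so that p-values measure the spread between libraries, which may be technical. The labels call the cells lymphoblasts. The erythroid genes GATA1, TAL1, LMO2 and TFRC were at 33.2 to 584 CPM (TMM-scaled gene counts relative to library size) in every library, HBG2 was at 0, and 11 marker genes of other blood cells reached at most 4.02 CPM. The sum of the erythroid markers moved with the groups, but single markers did not all move alike. Summed over 10 genes, of which 6 were at 1 CPM or more in every library, they were at 1111 to 1145 CPM in WT shControl, 668 to 689 in WT shMBD6, 561 to 573 in KO shControl and 793 to 808 in KO shMBD6. TFRC alone was at 578, 356, 318 and 470 CPM in this order. TAL1 was at 133 CPM in WT shControl and 127 in WT shMBD6, and NFE2 at 57.9 in KO shControl and 58.3 in KO shMBD6. LMO2, a transcriptional cofactor gene of blood cells, was at 247 ± 2.70, 92.8 ± 3.09, 54.7 ± 2.38 and 100.5 ± 3.62 CPM in the same order. The markers of other blood cells summed to 4.46 to 5.02, 7.30 to 9.12, 5.21 to 5.29 and 4.80 to 9.64 CPM, with 1 of 11 at 1 CPM or more in every library and ELANE at 0.

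The targeted genes were checked against the labels. MBD6 was at 41.5 ± 2.55 CPM (SD, n = 3) in TET2 WT shControl and 28 ± 2.71 in TET2 WT shMBD6. In TET2 KO it was at 30.3 ± 0.750 CPM in shControl and 34.4 ± 3.86 in the libraries labelled shMBD6, which goes against that label, and every direction drawn from the TET2 KO shMBD6 libraries carries this limit. TET2 itself was at 121 ± 2.59, 122 ± 4.07, 129 ± 2.23 and 94.8 ± 5.28 CPM in WT shControl, WT shMBD6, KO shControl and KO shMBD6. A gene-level count does not show an edited exon, so that it does not check the knockout. Gene counts ranged from 52158403 to 102070223 per library. RNA at genes that blood cells do not use also moved with the groups. Summed over 400 olfactory receptor genes, it was 0.0556, 0.0737, 0.0963 and 0.0675 CPM per kb of gene in the same order of groups. Its part in the values of low-level chromosome 15 genes was not tested, and values for the 306 members with a mean of at least 10 CPM are given beside those for all members.

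Human chromosome 15 is an acrocentric chromosome whose genes lie on its long arm. Near the centromere, its 15q11-q13 region holds imprinted genes, which are read from only the maternal or the paternal copy, and a cluster of GABA receptor genes. The rest of the arm carries genes of unrelated functions, among them the DNA helicase BLM, the damage response factor TP53BP1, the nuclear body protein PML, the kinase MAP2K1 and the ubiquitin ligase HERC1. TET enzymes act on 5-methylcytosine, which in human DNA lies mostly at CG dinucleotides, and many promoters of broadly used genes are rich in CG.

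The promoter sequences of 530 of the 874 members were found by symbol in RefSeq (GRCh38.p14, 1 start site per gene). Those of 5 members are shown, each as the 250 bases before the start site, because they belong to members with contrasting patterns described below. IL16, NEO1 and ANPEP were among the members with the largest differences between TET2 genotypes. TP53BP1 had a smaller difference, which was above the median of the chromosome under shControl. AQP9 was a low-level member that responded to shMBD6 in opposite directions in TET2 WT and KO. Capitals mark CG dinucleotides.
IL16: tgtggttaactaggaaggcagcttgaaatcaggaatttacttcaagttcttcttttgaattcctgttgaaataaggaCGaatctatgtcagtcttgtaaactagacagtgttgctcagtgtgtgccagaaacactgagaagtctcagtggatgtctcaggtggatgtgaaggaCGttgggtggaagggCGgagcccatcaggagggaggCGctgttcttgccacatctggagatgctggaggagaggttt
NEO1: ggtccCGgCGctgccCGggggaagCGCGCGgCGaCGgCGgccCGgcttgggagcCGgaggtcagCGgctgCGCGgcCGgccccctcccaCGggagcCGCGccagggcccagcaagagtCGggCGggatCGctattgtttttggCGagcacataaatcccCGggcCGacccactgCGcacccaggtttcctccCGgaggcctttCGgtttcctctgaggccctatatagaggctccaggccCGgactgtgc
ANPEP: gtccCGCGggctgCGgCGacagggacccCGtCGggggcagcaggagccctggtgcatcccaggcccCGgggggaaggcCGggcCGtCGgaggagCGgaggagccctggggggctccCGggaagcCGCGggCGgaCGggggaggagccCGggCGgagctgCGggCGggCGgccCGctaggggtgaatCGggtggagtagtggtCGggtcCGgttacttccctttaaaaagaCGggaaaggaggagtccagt
TP53BP1: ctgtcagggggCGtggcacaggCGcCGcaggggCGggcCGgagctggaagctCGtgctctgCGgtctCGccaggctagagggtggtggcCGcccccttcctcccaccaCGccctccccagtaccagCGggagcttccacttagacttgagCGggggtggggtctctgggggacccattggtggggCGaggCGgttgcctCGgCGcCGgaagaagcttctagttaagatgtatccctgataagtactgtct
AQP9: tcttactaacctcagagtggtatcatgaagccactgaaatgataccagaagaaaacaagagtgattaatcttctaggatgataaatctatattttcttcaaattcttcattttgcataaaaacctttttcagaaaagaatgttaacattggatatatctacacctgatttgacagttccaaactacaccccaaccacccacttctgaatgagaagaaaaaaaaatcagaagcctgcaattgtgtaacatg
These windows lie at chr15:81199226-81199475 on the plus strand for IL16, chr15:73051652-73051901 (plus) for NEO1, chr15:89814853-89815102 (minus) for ANPEP, chr15:43510641-43510890 (minus) for TP53BP1 and chr15:58137919-58138168 (plus) for AQP9. RefSeq and GENCODE start sites differ for several of them, so that the IL16 and ANPEP windows lie wholly, and the NEO1 and TP53BP1 windows partly, inside the GENCODE gene. They hold 4, 28, 26, 17 and 0 CG dinucleotides, respectively. The median over members of at least 10 CPM was 22 CG (249 promoters), against 8 over members under 1 CPM (150 promoters) and 11 over all 27305 promoters. Promoters with 10 or more CG made up 88.4% of those of members of at least 10 CPM and 51.9% of all promoters. The 12 matched members that were at least 4-fold higher in both TET2 KO groups had a median of 7.5 CG, with a range from 1 to 28. These are counts of letters in a fixed window, and no methylation was measured here.

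Chromosome 15 genes took a larger share of the caRNA in both TET2 KO groups. They held 2.35% ± 0.000838 of all gene counts in TET2 WT shControl (SD, n = 3) and 2.42% ± 0.00477 in TET2 WT shMBD6, but 3.69% ± 0.00246 in KO shControl and 3.58% ± 0.00601 in KO shMBD6. The lowest KO library, at 3.58%, lay above the highest WT library, at 2.42%. In bulk libraries, more cells with a transcript and more RNA per cell cannot be told apart. The summed erythroid markers differed between the same groups, as given above, and their part in this share was not tested. The level of the typical gene moved with the share. The median log2 level of the 306 members of at least 10 CPM, relative to other autosomes and to the mean of TET2 WT shControl, was 0.577, 0.583 and 0.593 in the 3 KO shControl libraries and 0.590, 0.588 and 0.612 in the KO shMBD6 libraries. In WT shMBD6 it was 0.0592, 0.0475 and 0.0581, and in WT shControl it was 0.0026, 0.0028 and 0.00034. Both KO groups thus lay well apart from both WT groups, and the KO groups overlapped each other. The plot of levels by library shows both measures.

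**Figure D1:**
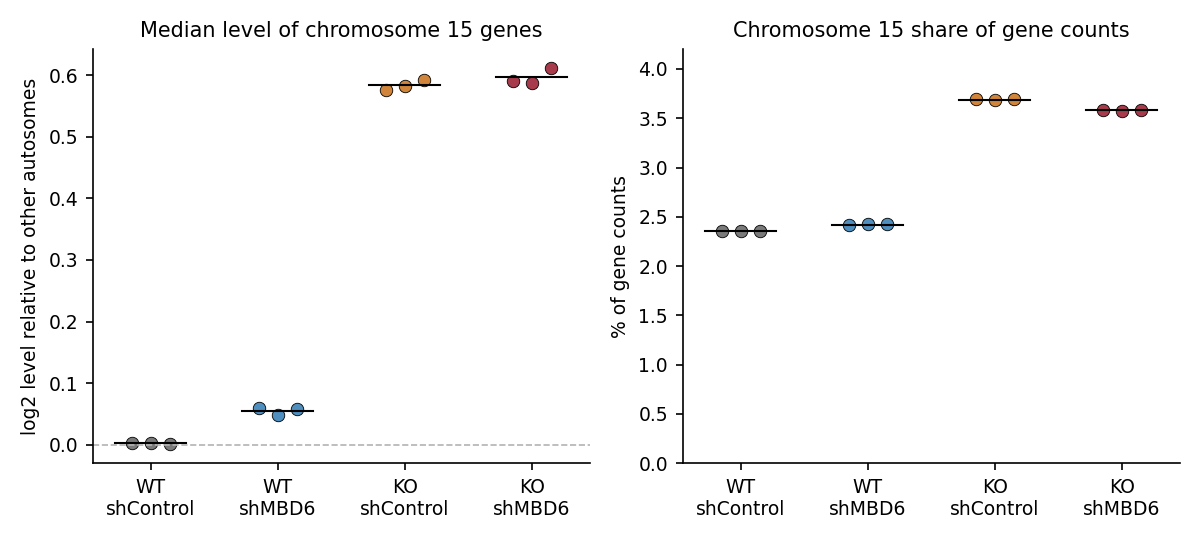
Left, median log2 level of 306 chromosome 15 genes (at least 10 CPM) relative to 8659 genes of other autosomes, set to the mean of TET2 WT shControl. Right, chromosome 15 genes in % of gene counts. Points are single libraries (3 per group) and lines are group means. All 6 KO libraries lie above all 6 WT libraries in both panels.

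Across single genes, the median log2 change of TET2 KO over WT was 0.53 under shControl over the 860 tested members, and -0.07 over 23870 genes of other autosomes. Under shMBD6 it was 0.60 for chromosome 15 and -0.04 for the other autosomes. For genes of at least 10 CPM the medians were 0.60 and 0.00 under shControl, and 0.80 and 0.25 under shMBD6, so that the chromosome stood apart from the other autosomes by 0.59 and 0.56 on the log2 scale, or 1.51-fold and 1.47-fold. Among the 306 members of at least 10 CPM, 293 were above 0 under shControl and 298 under shMBD6. Every KO library was above every WT library for 475 of 860 members under shControl, where 27.8% of all tested genes met the same condition, and for 443 under shMBD6, where 31.3% did. Under shMBD6 all KO libraries lay below all WT libraries for 167 members, where 32.7% of all tested genes did so. Scaling by total gene counts rather than TMM moved the median of all genes by -0.18 and -0.15 in these comparisons, and DESeq2 size factors moved it by -0.02 and -0.12. With every scaling tried the median of members of at least 10 CPM stayed between 0.42 and 0.61 under shControl and between 0.66 and 0.82 under shMBD6.

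No other autosome had a median as high in either pair. For genes of at least 10 CPM, the medians of the other 21 autosomes ran from -0.15 (chromosome 19) to 0.40 (chromosome 8) under shControl and from 0.17 (chromosome 13) to 0.50 (chromosome 8) under shMBD6. Chromosome 15 did not stand apart in the comparisons of shMBD6 with shControl, which were not those that chose it but use the same libraries. Its median was -0.15 in TET2 WT, inside a range from -0.23 to -0.13 over the other autosomes, and -0.01 in TET2 KO, inside a range from -0.08 to 0.10.

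**Figure D2:**
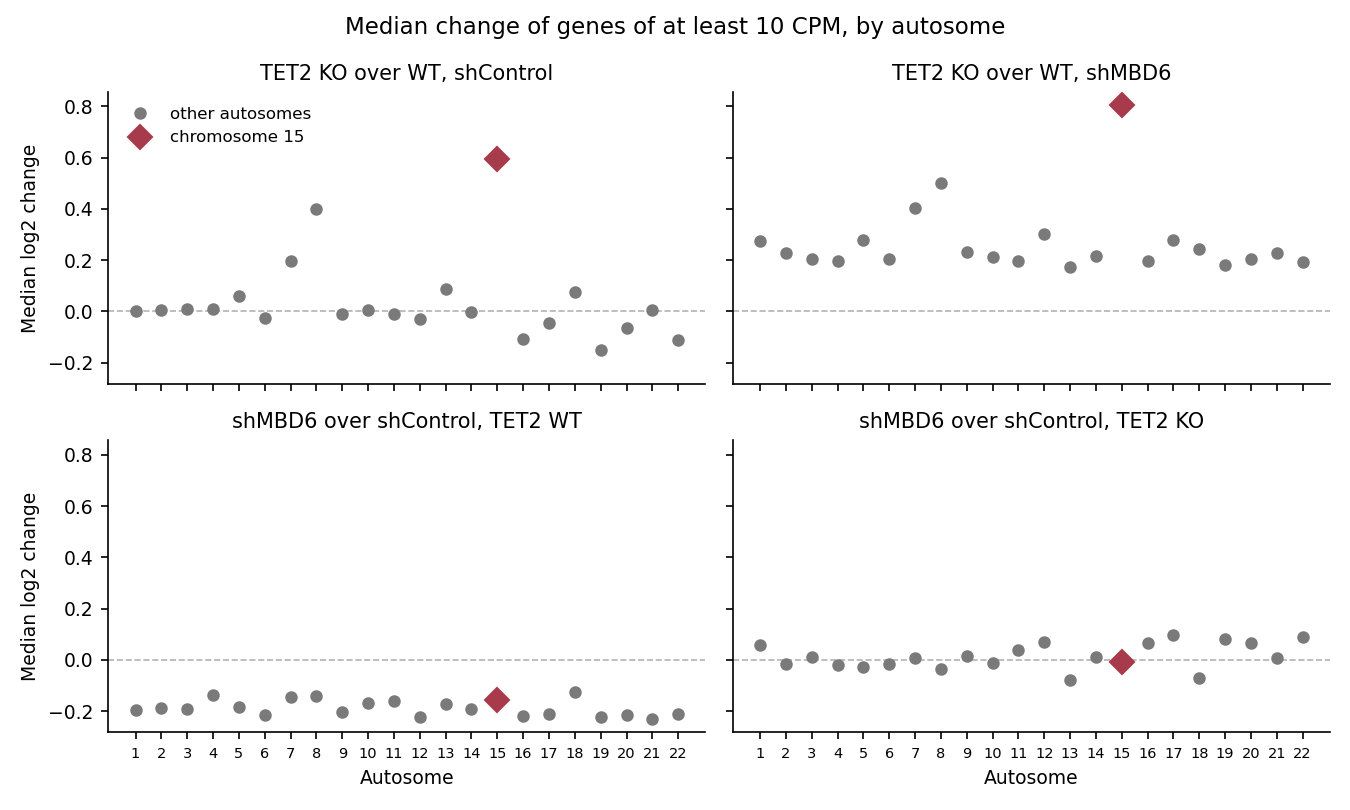
Median log2 change of genes of at least 10 CPM on each autosome, in 4 comparisons on 1 common axis. Chromosome 15 (diamond) is at 0.60 and 0.80 in the comparisons of TET2 KO with WT, above all other autosomes, and at -0.15 and -0.01 in those of shMBD6 with shControl, among them.

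The higher level ran along the whole arm. Over 9 windows of 10 Mb, from 20 Mb to the end of the chromosome, the median log2 change of members of at least 10 CPM under shControl was 0.55, 0.77, 0.56, 0.71, 0.64, 0.57, 0.54, 0.49 and 0.45. Under shMBD6 the same windows had medians of 0.81, 0.86, 0.81, 0.74, 0.88, 0.80, 0.81, 0.78 and 0.82. The windows held 16, 19, 63, 34, 54, 51, 34, 25 and 10 such members. At this level no window had a median near 0 in either pair, and the windows differed less from each other under shMBD6 than under shControl. Over all tested members this order was reversed. Their window medians ran from 0.36 to 0.66 under shControl and from 0.21 to 0.73 under shMBD6, where they were 0.22 and 0.21 at the end of the chromosome.

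A running median over 15 neighbouring genes was above 0 in all 292 stretches of both pairs. It ran from 0.33, around the ankyrin repeat gene ASB7, to 0.91, around NEDD4, under shControl, and from 0.48, around RFX7, to 1.00, around INTS14, under shMBD6. NEDD4, a ubiquitin ligase gene, and RFX7, which encodes a transcription factor, lie near each other, so that the highest stretch under shControl and the lowest under shMBD6 lay side by side. NEDD4 was at 148, 148 and 146 CPM in WT shControl, 217, 219 and 232 in WT shMBD6, 359, 357 and 368 in KO shControl and 226, 231 and 232 in KO shMBD6. The KO shMBD6 values overlapped those of WT shMBD6, whereas KO shControl lay far above WT shControl. Accordingly, NEDD4 rose with shMBD6 in WT by 0.60 ± 0.03 on the log2 scale (SE, edgeR adjusted p = 5.67e-17) and fell by 0.65 ± 0.03 in KO (adjusted p = 4.46e-18). NEDD4 was named for the TET2 KO over WT values of its stretch in the same libraries, so that these p-values are not independent of that choice.

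**Figure D3:**
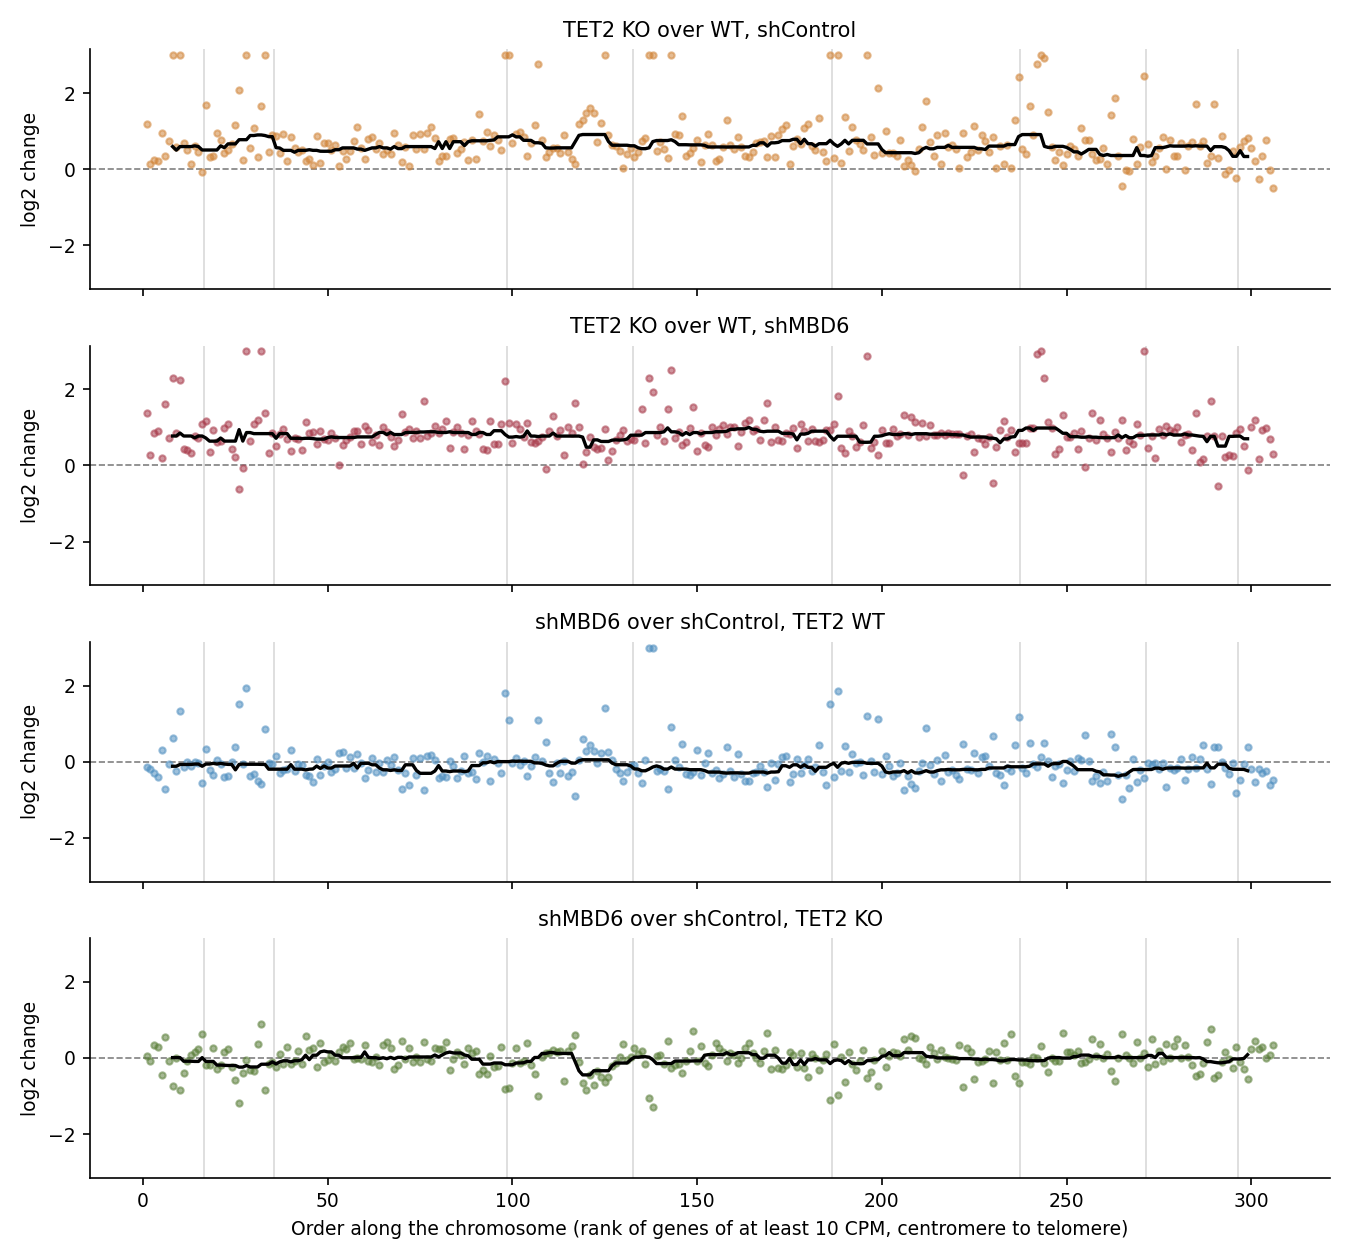
Log2 change of 306 chromosome 15 genes of at least 10 CPM in order along the chromosome, in 4 comparisons. Points are genes, drawn at 3 where they are above 3 (14, 4, 2 and 0 genes from top to bottom), black lines are running medians over 15 genes, and grey verticals separate the 10-Mb windows. The running median stays above 0 throughout the upper 2 panels.

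The difference from the other autosomes was similar in each class of gene of at least 10 CPM. It was 0.57, 0.64 and 0.62 under shControl for genes of 10 to 30, 30 to 100 and over 100 CPM, and 0.59 and 0.60 for genes on the plus and the minus strand. Protein-coding genes differed by 0.59 and lncRNA genes by 0.67 under shControl, with 0.55 and 0.75 under shMBD6. The 14 pseudogenes had a smaller difference under shControl, 0.35, but one of 0.51 under shMBD6. Genes with and without an overlapping gene on the same strand differed from the other autosomes by 0.57 each under shControl.

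Few members of at least 10 CPM were not higher. The 13 at or below 0 under shControl included AEN, a nuclease gene of the p53 response, at 17.9, 16.7 and 17.2 CPM in WT shControl and 13.6, 12.9 and 11.8 in KO shControl, a log2 change of -0.44. Under shControl all KO libraries lay below all WT libraries for 55 of 860 members, where 28.3% of all tested genes did so. Among members of at least 10 CPM this held for 4 of 306 (1.31%), AEN, DNM1P46, PCSK6 and WASH3P, against 37.8% of genes of that level on other autosomes. At the end of the chromosome, PCSK6, a proprotein convertase gene, had a log2 change of -0.26 and the subtelomeric pseudogene WASH3P one of -0.50. Under shMBD6 these 3 genes were above 0, at 1.19, 0.17 and 0.30. Conversely, the 8 members at or below 0 under shMBD6 included ACSBG1, an acyl-CoA synthetase gene, at -0.47, SCAPER at -0.26 and the lncRNA ENSG00000259639 at -0.61, and all 8 were above 0 under shControl. Of the 306 members, 0 were lower in both pairs and 285 (93.1%) were higher in both, where 33.7% of genes of other autosomes were. Of the same members, 108 (35.3%) had a log2 change between 0.3 and 0.9 in both pairs, against 5.17% on other autosomes. Over all 860 tested members, fewer were higher in both pairs, 519 (60.3%). The 334 members under 1 CPM had a median log2 change of 0.27 under shControl and -0.42 under shMBD6. On other autosomes genes of that level had medians of -0.43 and -1.53. The members with the lowest values in both pairs and at least 1 CPM were low-level genes: UNC13C, SEMA6D, MYO1E, ENSG00000285919 and ENSG00000259200.

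With the common difference included, 18 members of at least 1 CPM were at least 4-fold higher in both KO groups, 3.42% of 526, against 0.969% on other autosomes. The common difference of the chromosome counts toward this limit and raises its share, so that the 2 shares are not on equal terms. The level of 1 CPM is a mean over the 4 groups, which some members reached only through KO, among them ENSG00000274471 and LINC01193. The 4-fold limit was set after the values were seen. IL16, a cytokine gene at chr15:81159575-81314058, was at 19.0, 19.3 and 19.5 CPM in WT shControl and 21.4, 20.7 and 21 in WT shMBD6. It was at 238, 224 and 229 CPM in KO shControl and 282, 285 and 288 in KO shMBD6, a log2 change of 3.58 under shControl and 3.76 under shMBD6. Some genes near IL16 were also much higher in KO, but not every one. CFAP161, a cilium gene just upstream, was at 19.0 ± 0.642 CPM in WT shControl and 129.8 ± 4.50 in KO shControl, and the lncRNA TMC3-AS1 downstream was at 13.4 ± 0.350 and 102 ± 1.79 (SD, n = 3). STARD5, which starts between the starts of IL16 and TMC3-AS1, had 85, 241 and 299 counts in the WT shControl libraries and 304, 219 and 289 in KO shControl. ANPEP, the gene of the myeloid surface aminopeptidase CD13, was at 6.58 ± 0.288 CPM in WT shControl and 36.0 ± 3.39 in KO shControl.

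A second pattern, with WT shMBD6 between WT shControl and the KO groups, was seen at ATP8B4 and NEO1. ATP8B4, a phospholipid flippase gene, was at 4.25, 5.43 and 5.88 CPM in WT shControl, 16.1, 20.0 and 19.1 in WT shMBD6, 148, 152 and 151 in KO shControl and 79.8, 82.2 and 92.6 in KO shMBD6. NEO1, the neogenin receptor gene, was at 2.81, 2.72 and 3.52 CPM in WT shControl, 6.14, 7.81 and 7.05 in WT shMBD6, 70.9, 72.6 and 73.7 in KO shControl and 50.4, 49.5 and 51.8 in KO shMBD6. None of the 4 groups overlapped another at either gene. HDC, the histidine decarboxylase gene that lies near ATP8B4, was at 0.145, 0.826, 6.18 and 7.79 CPM in the same order of groups. SLC27A2, which lies between ATP8B4 and HDC, had 913, 1498 and 1307 counts in the WT shControl libraries and 9141, 6387 and 7866 in KO shControl. The carbonic anhydrase gene CA12 and the lncRNA LINC02568 were adjacent members, with log2 changes of 3.70 and 3.33 under shControl.

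The shMBD6 comparisons of these 18 members use the same libraries as the values that chose them, so that their counts and p-values are not independent of that choice. In TET2 WT, 11 were called higher and 2 lower with shMBD6 (edgeR adjusted p under 0.05), and in TET2 KO 1 was called higher and 10 lower. Of all tested genes, 17.7% were called higher and 24.7% lower in WT, and 15.7% and 20.6% in KO. With scaling by total gene counts the TET2 KO counts were 3 higher and 5 lower. The largest values came from genes almost absent in WT. ENSG00000274471, a pseudogene, had 0, 2 and 1 counts in the WT shControl libraries, 0, 2 and 0 in WT shMBD6, 462, 302 and 374 in KO shControl and 177, 355 and 310 in KO shMBD6. LINC01193 had 1, 35 and 7 counts in WT shControl against 264, 217 and 236 in KO shControl.

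**Figure D4:**
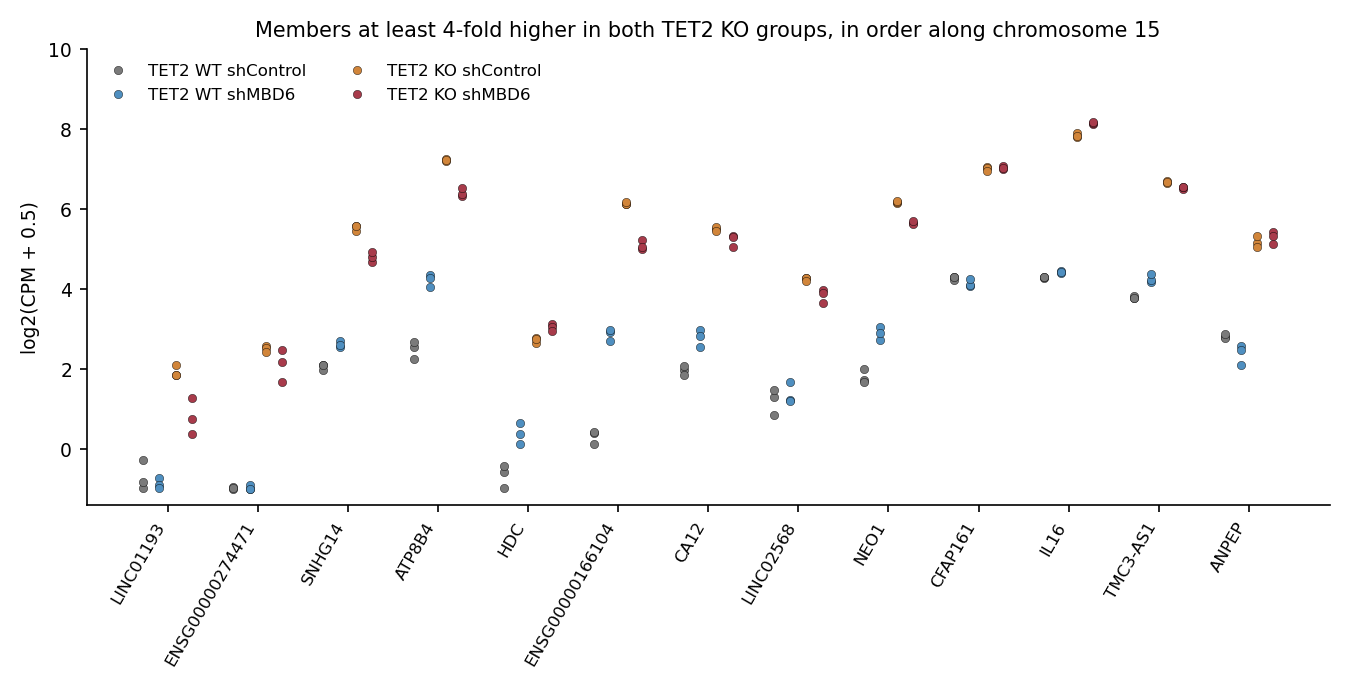
Level, as log2(CPM + 0.5), of 13 of the 18 members at least 4-fold higher in both TET2 KO groups, those named in the text, in order along the chromosome, with 1 point per library and 3 libraries per group. KO points lie above WT points for each gene. WT shMBD6 (blue) lies above WT shControl (grey) at ATP8B4 and NEO1, and the points of these 2 groups are close at IL16 and CFAP161.

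Imprinted 15q11-q13 genes were examined next, with 7 of 15 listed genes measured. UBE3A, the ubiquitin ligase gene read from the maternal copy in neurons, was at 156, 155 and 158 CPM in WT shControl, 124, 138 and 134 in WT shMBD6, 236, 234 and 237 in KO shControl and 232, 236 and 243 in KO shMBD6. The paternally expressed gene MKRN3 was at 37.4 ± 1.02 CPM in WT shControl and 62.5 ± 3.55 in KO shControl, a log2 change of 0.74, with 0.73 under shMBD6. Both genes therefore stood near the median of the chromosome. SNHG14, a long host transcript of small nucleolar RNAs that runs antisense to UBE3A, was far above it, at 3.69, 5.65, 45.9 and 27.7 CPM in WT shControl, WT shMBD6, KO shControl and KO shMBD6. SNRPN, ATP10A, PWRN1 and NPAP1 were under 1.5 CPM in every group. With shMBD6, SNHG14 rose in TET2 WT by 0.62 ± 0.10 (adjusted p = 2.51e-06) and fell by 0.73 ± 0.08 in KO (adjusted p = 9.47e-09). Of the 7 genes, 3 were called higher and 1 lower with shMBD6 in WT and 0 higher and 1 lower in KO, or 1 and 1 in KO with total gene counts. For this and the lists that follow, the shares over all tested genes were 17.7% higher and 24.7% lower in WT and 15.7% and 20.6% in KO.

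Among 16 GABA receptor genes and neighbours in 15q11-q13, 13 were above 0 in each pair. GABRG3, a GABA receptor subunit gene, was at 999 ± 6.99 CPM in WT shControl, 904 ± 9.43 in WT shMBD6, 1598 ± 13.8 in KO shControl and 1215 ± 23.5 in KO shMBD6. It had the highest level per kb of exon in its window, 92.9 CPM per kb, and a log2 change of 0.68 under shControl. HERC2, a ubiquitin ligase gene, had log2 changes of 0.50 and 0.41. GABRA5, CHRNA7, KLF13 and OTUD7A were under 1.5 CPM in every group. In the shMBD6 comparisons 3 were called higher and 5 lower in WT, and 6 higher and 6 lower in KO, or 7 and 4 in KO with total gene counts, beside 17.7% and 24.7% of all genes in WT and 15.7% and 20.6% in KO.

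Genes of DNA repair, replication and mitosis followed the chromosome. Of 22 tested, 20 were above 0 in each pair, with medians of 0.49 and 0.84 for the 17 of at least 10 CPM. TP53BP1 was at 117, 115 and 118 CPM in WT shControl and 220.3, 216 and 231 in KO shControl, and BLM at 123, 123 and 124 against 207, 208 and 209. FANCI, a Fanconi anaemia gene, had log2 changes of 0.79 and 0.56. The replication fork gene TIPIN differed between the pairs, at 0.32 under shControl and 1.64 under shMBD6. TIPIN fell with shMBD6 in TET2 WT, by 0.67 ± 0.10 (adjusted p = 7.95e-07), and rose in KO, by 0.65 ± 0.09 (adjusted p = 9.77e-07). In WT, 2 of the 22 were called higher and 12 lower with shMBD6, and in KO 6 and 6, where 17.7% and 24.7% of all tested genes were in WT and 15.7% and 20.6% in KO. These counts moved to 3 and 8 in WT and 10 and 1 in KO with scaling by total gene counts.

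Transcription factor and chromatin genes showed the same common difference. Of 30 tested, 26 were above 0 in each pair. TCF12, a basic helix-loop-helix factor gene, was at 549.7, 576 and 567 CPM in WT shControl, 527, 563 and 559 in WT shMBD6, 933, 931 and 934 in KO shControl and 739, 731 and 747 in KO shMBD6. ZNF609, MGA and CHD2 had log2 changes of 0.64, 0.74 and 0.72 under shControl. SMAD3, a TGF-beta signal transducer gene, was close to 0 under shControl at 0.13, but at 0.82 under shMBD6, and it fell with shMBD6 in WT by 0.53 ± 0.03 (adjusted p = 5.14e-16). RORA and ARNT2 were low and below 0 under shMBD6, at -2.33 and -2.47. In WT, 6 were called higher and 13 lower with shMBD6, and 9 and 13 in KO, with 9 and 11 in WT and 11 and 7 in KO under total gene counts. The shares of all tested genes were 17.7% and 24.7% in WT and 15.7% and 20.6% in KO.

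All 29 tested kinase and receptor genes were above 0 under shControl, with a median of 0.89, and 26 were under shMBD6. MAP2K1, a kinase gene of the MAPK cascade, was at 79.5 ± 1.36 CPM in WT shControl and 146 ± 1.15 in KO shControl, a log2 change of 0.87, and IGF1R, the insulin-like growth factor receptor gene, had one of 0.88. The Ras activator gene RASGRP1 was at 8.24, 5.51, 25.9 and 47.9 CPM in WT shControl, WT shMBD6, KO shControl and KO shMBD6. With shMBD6 it fell in WT by 0.58 ± 0.09 (adjusted p = 3.88e-06) and rose in KO by 0.88 ± 0.08 (adjusted p = 1.89e-10). SEMA7A, a semaphorin gene, did the opposite, with a rise of 1.13 ± 0.09 in WT (adjusted p = 9.95e-13) and a change of -0.74 ± 0.08 in KO (adjusted p = 7e-09). The list as a whole had 10 called higher and 5 lower in WT, and 5 higher and 13 lower in KO, against 17.7% and 24.7% of all tested genes in WT and 15.7% and 20.6% in KO. With total gene counts these became 13 and 3 in WT and 8 and 9 in KO.

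Of the ubiquitin system genes, all 14 tested were above 0 under shControl and 13 under shMBD6. HERC1 was at 552, 536 and 546 CPM in WT shControl, 492, 488 and 503 in WT shMBD6, 1002, 1014 and 1013 in KO shControl and 909, 897 and 926 in KO shMBD6. Its log2 change was 0.89 under shControl and 0.88 under shMBD6. The deubiquitinase genes USP3 and USP8 were at 0.92 and 0.99 under shControl. In this list 1 gene was called higher and 8 lower with shMBD6 in WT, and 1 and 9 in KO, where 17.7% and 24.7% of all genes were called in WT and 15.7% and 20.6% in KO. The counts were 3 and 6 in WT and 5 and 2 in KO with total gene counts.

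Membrane traffic genes, 22 of 23 above 0 under shControl and 19 under shMBD6, included RAB27A, a small GTPase gene of secretion, at 284 ± 5.14, 235 ± 2.43, 341 ± 2.25 and 424 ± 5.01 CPM in WT shControl, WT shMBD6, KO shControl and KO shMBD6. The fatty acid, retinoid and mitochondrial genes of the metabolism list were above 0 for 24 of 29 under shControl and 21 under shMBD6. ALDH1A2, the retinoic acid synthesis gene, was at 381, 385 and 391 CPM in WT shControl and 882, 887 and 908 in KO shControl. LIPC, the hepatic lipase gene, stood at 17.0, 21.3 and 18.2 CPM in WT shControl, 50.6, 51.6 and 48.7 in WT shMBD6, 155, 152 and 147 in KO shControl and 102, 93.0 and 96.6 in KO shMBD6. With shMBD6, 4 traffic genes were called higher and 11 lower in WT and 8 and 4 in KO, or 6 and 7 in WT and 9 and 1 in KO with total gene counts. The metabolism counts were 11 and 9 in WT and 5 and 7 in KO, or 12 and 5 in WT and 9 and 7 in KO with total gene counts. Both lists stand beside 17.7% and 24.7% of all tested genes in WT and 15.7% and 20.6% in KO.

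Ribosomal protein and translation genes had the smallest median of the lists under shControl and the largest under shMBD6. Of 13 tested, 12 were above 0 in each pair, with medians of 0.37 and 1.01. RPL4 was at 40.5, 36.5 and 35.5 CPM in WT shControl, 27.5, 27.6 and 25.4 in WT shMBD6, 46.6, 47.4 and 46.8 in KO shControl and 58.6, 53.9 and 50.8 in KO shMBD6. In TET2 WT, 0 of the 13 were called higher and 9 lower with shMBD6, where 17.7% and 24.7% of all tested genes were, and with scaling by DESeq2 size factors or total gene counts 0 and 8. In TET2 KO, 5 were called higher and 1 lower with each of these scalings, where 15.7% and 20.6% of all tested genes were with TMM. These lists were chosen with earlier results of the data known, their examples were partly chosen after their values were seen, and no comparison of one list with another was tested.

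The comparison of shMBD6 with shControl asks what MBD6 depletion does in each genotype. It was not the comparison that chose the chromosome, but it uses the same libraries. In TET2 WT, 164 of 860 members were called higher with shMBD6, or 19.1%, where 17.7% of all tested genes were, and 193 were called lower, or 22.4%, against 24.7% (edgeR quasi-likelihood test, Benjamini-Hochberg adjusted p under 0.05 over all genes). In TET2 KO, the libraries labelled shMBD6 had 117 members (13.6%) called higher and 162 (18.8%) called lower, against 15.7% and 20.6% of all genes. The shares of chromosome 15 were thus close to those of all genes in both genotypes. The split depended on scaling. In WT, scaling by total gene counts moved the median of all genes by 0.10 and gave 207 higher and 146 lower, and DESeq2 size factors moved it by 0.11 and gave 213 and 135. In KO, total gene counts moved it by 0.12 and gave 190 and 110.

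Among called members of at least 1 CPM whose groups did not overlap, those that rose most with shMBD6 in TET2 WT were the neighbouring pseudogenes GOLGA2P11 and ENSG00000166104 at 62.2 Mb, CD276, HDC and the lncRNA LINC01583. GOLGA2P11 was at 0.568, 0.269 and 0.388 CPM in WT shControl, 5.54, 5.24 and 6.02 in WT shMBD6, 51.8, 51.6 and 53.1 in KO shControl and 20.8, 23.4 and 20.0 in KO shMBD6. The groups did not overlap. Its rise in WT was 3.83 ± 0.15 on the log2 scale (adjusted p = 3.35e-20), and in KO it fell by 1.29 ± 0.10 (adjusted p = 6.21e-13). It belongs to a family of near-identical copies, so that its counts are uncertain. CD276, the immune checkpoint gene B7-H3, was at 0.374, 1.05 and 0.587 CPM in WT shControl, 4.95, 4.11 and 4.42 in WT shMBD6, 5.77, 5.10 and 6.05 in KO shControl and 2.85, 2.35 and 2.69 in KO shMBD6. It rose by 2.72 ± 0.26 in WT (adjusted p = 1.63e-10) and fell by 1.10 ± 0.24 in KO (adjusted p = 0.000337).

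By the same rule, those that fell most in TET2 WT were SKOR1, UBE2Q2P16, STOML1, LCMT2 and ENSG00000261136, with log2 changes from -1.30 to -1.22. SKOR1, a transcriptional corepressor gene, was at 1.22, 1.55 and 1.58 CPM in WT shControl and 0.570, 0.529 and 0.668 in WT shMBD6 (adjusted p = 0.000224). LCMT2, a transfer RNA modification gene, was at 4.75, 3.68 and 4.49 CPM and fell to 2.10, 1.73 and 1.68 (adjusted p = 1.67e-06). The groups of both genes did not overlap, which in this comparison was so for 28.4% of all genes in this direction. The lncRNA ENSG00000261136 lost its call when any of 3 libraries was left out.

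In TET2 KO the largest rises in the libraries labelled shMBD6 were those of ZSCAN2-AS1, ENSG00000259519, HDDC3, SENP8 and SNX22. SENP8, the gene of a NEDD8-specific protease, was at 3.38, 3.12 and 4.03 CPM in KO shControl and 8.77, 5.74 and 6.93 in KO shMBD6, a rise of 1.02 ± 0.19 (adjusted p = 4.26e-05). The largest falls were those of NBEAP1, SLCO3A1, NTRK3, AQP9 and LINC02204. SLCO3A1, an organic anion transporter gene, was at 19.7, 17.1 and 18.8 CPM in KO shControl and 3.79, 4.76 and 3.45 in KO shMBD6, and fell by 2.21 ± 0.18 (adjusted p = 4.01e-12). NTRK3, a neurotrophin receptor gene, went from 2.83, 3.01 and 2.08 CPM to 0.487, 0.756 and 0.558 (adjusted p = 1.93e-07). AQP9, the aquaglyceroporin gene whose promoter above holds no CG, was at 2.29, 4.04 and 2.99 CPM in KO shControl and 0.548, 1.28 and 0.714 in KO shMBD6 (adjusted p = 0.000108), and it rose in WT by 2.13 ± 0.37 (adjusted p = 1.54e-05).

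Whether shMBD6 acted differently in the 2 genotypes was tested for each gene by the genotype by shRNA interaction. Of 860 members, 197 (22.9%) had a called interaction above 0 and 219 (25.5%) one below 0, against 23.9% and 25.5% of all genes, so that chromosome 15 was again close to the background. The interaction is the difference between the 2 TET2 KO over WT changes that chose the chromosome, so that these shares are not independent of that choice. A called interaction selects genes whose changes differ between the genotypes, so that the call itself favours opposite signs. Members with opposite signs in the plot of both changes were not counted. SLCO3A1 is an example of opposite signs, with 3.45, 1.55 and 2.09 CPM in WT shControl and 9.35, 10.5 and 9.16 in WT shMBD6, and an interaction of -4.26 ± 0.25 (adjusted p = 1.3e-15). MKRN3, HERC1 and HERC2 had interactions of -0.01 ± 0.08, -0.01 ± 0.03 and -0.09 ± 0.05 that were not called.

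**Figure D5:**
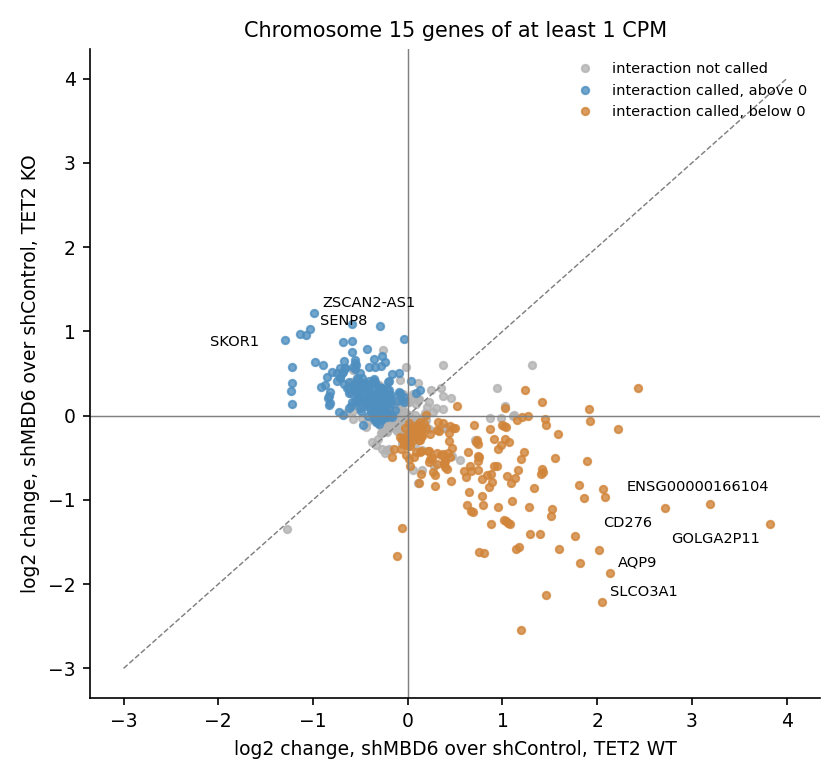
Log2 change with shMBD6 over shControl in TET2 WT (horizontal) and in TET2 KO (vertical) for 526 chromosome 15 genes of at least 1 CPM. Each point is a gene, colours give the interaction call (365 called), and the dashed line marks equal change. GOLGA2P11 is at 3.83 and -1.29, SLCO3A1 at 2.05 and -2.21 and SKOR1 at -1.30 and 0.90.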

How the data were processed

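Chromatin-associated RNA libraries of K562 cells were used, 3 in each of 4 groups named by the labels, and 7 mouse libraries were not used. The deposited values were raw counts per gene, which the authors made with Trimmomatic 0.39, HISAT2 2.2.1, hg38 and HTSeq 0.12.4 according to the submitters' notes, and the methods also name featureCounts. Reads without a gene were 13.1 to 16.0% of the counted total and stayed out of library sizes. Genes were placed with GENCODE 44, which matched 99.1% of identifiers. Counts were filtered with filterByExpr, scaled by TMM and fitted with edgeR 4.0.16 (quasi-likelihood, R 4.3.3), with all 4 groups in 1 fit and Benjamini-Hochberg adjusted p under 0.05 as the threshold. CPM are TMM-scaled, and 0.5 CPM was added before logarithms of library levels. Gene counts of 52158403 to 102070223 per library set the precision. Scripts were tested on simulated data. Alternatives were DESeq2 1.42.0, other scalings, filters and gene sets, a replicate term and leaving out each library. Members, gene lists and tests were chosen with earlier results of these data known. Named genes were the 5 highest and 5 lowest called members of at least 1 CPM in each shMBD6 comparison (groups not overlapping) and the interaction, the members at least 4-fold higher in both KO groups, the lowest in both, the gene with the highest CPM per kb of exon in each window, and the genes of highest level in the lists. Other list genes and the exceptions named in the report were chosen after their values were seen. Gene counts in a family of near-identical copies or overlapping genes are uncertain. Spike-in counts, which the methods describe, were not used here, so that every level is relative to the gene counts of its library and a change in total RNA would not show. Whether reads in introns were counted is not given in the sources used here. DNA copy number was not analysed here.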

Additional observations from a re-analysis of the deposited data

Results flagged for a closer look

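The genotype by shRNA interaction was called, with the change under shMBD6 taking opposite directions in TET2 WT and TET2 KO, for members at both ends of its range. The 10 given here were the 5 highest and the 5 lowest interactions among called members of at least 1 CPM, and each was tested by edgeR's quasi-likelihood test of the interaction itself. Positive interactions, higher with shMBD6 in KO than in WT, were 2.21 ± 0.44 (log2, SE) for ZSCAN2-AS1, 2.2 ± 0.38 for SKOR1, 2.10 ± 0.45 for SNX22, 2.06 ± 0.27 for SENP8 and 2.03 ± 0.28 for PGBD4. Negative interactions were -5.12 ± 0.18 for GOLGA2P11, -4.26 ± 0.25 for SLCO3A1, -4.23 ± 0.14 for ENSG00000166104, -3.9996 ± 0.52 for AQP9 and -3.82 ± 0.35 for CD276. These genes are at low to moderate levels, MBD6 was not lower in the TET2 KO libraries labelled shMBD6, and the part of either in these values was not tested.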

How the results depend on the processing

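The comparisons were recomputed with other scalings, filters and tools and without each library in turn. No gene named among the 5 largest rises or falls of a comparison changed direction. Genes named for other reasons were not followed in this way. SMAD3 was one of these, and its small change under shControl was not stable. Total gene counts moved the median of all genes in that comparison by -0.18, which is more than the SMAD3 change. The balance of calls did change with scaling. With shMBD6 in TET2 WT it went from 164 higher and 193 lower to 213 and 135 with DESeq2 size factors and 207 and 146 with total gene counts, and in KO from 117 and 162 to 190 and 110 with total gene counts, where the ubiquitin list went from 1 and 9 to 5 and 2. The chromosome 15 shift is the median log2 change of its genes minus that of other autosomes. TET2 KO over WT gave 0.608 under shControl, and 0.595 for genes of at least 10 CPM, 0.629 for protein-coding genes and 0.619 for genes with no overlapping gene on the same strand. Under shMBD6 it was 0.637, and 0.650 with a filter of 10 counts in 3 libraries, 0.558, 0.607 and 0.626 for the same 3 gene sets. The shift with shMBD6 in TET2 WT was -0.0155, and -0.0269 with the filter of 10 counts, 0.0362 for genes of at least 10 CPM and 0.0219 for protein-coding genes. In TET2 KO it was 0.0080, and -0.0319 and -0.0081 for these 2 gene sets, so that the sign of the small shMBD6 shifts was not stable.

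Leaving out 1 library moved the shifts between 0.601 and 0.619, 0.615 and 0.670, -0.0371 and -0.0112, and -0.0105 and 0.0164, in the same order. ENSG00000261136 and ENSG00000259519 each lost their call without any of 3 libraries, and SNX22 without the first TET2 KO shControl library. Counting error is largest for genes under 1 CPM.

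Same-numbered libraries did not deviate together (correlations from -0.0174 to 0.0201), so that the numbers do not pair them. With the replicate block the shifts were 0.609, 0.646, -0.0168 and 0.0047, and 159 and 197 genes were called higher and lower with shMBD6 in WT, 119 and 161 in KO, and 199 and 218 for the interaction.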
